A study of Mus musculus with 15 samples.

Results

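Macrophage genes were followed in RNA from primary lung fibroblasts, cells grown out of mouse lung, a tissue that also holds many macrophages. The list held 37 genes that are widely used to mark macrophages and other myeloid cells, and no threshold on a measured value entered it. Of these, 36 were among the 48440 genes of the count table, and Lilrb4a was not analysed here. All 36 entered the tests, which covered 18167 genes with enough reads in the libraries of at least 1 group.

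Fibroblasts of C57BL/6 mice were compared by genotype, passage and irradiation in 5 groups of 3 libraries. The groups were Atm+/+ cells taken 10 days after 10 Gy of X-rays and labelled passage 2, Atm-/- cells at passage 8, Atm-/- cells at passage 2, Atm+/+ cells at passage 8, and Atm+/+ cells at passage 2. Each of the 3 libraries of a group came from another fibroblast strain, and all cultures were kept in 3% oxygen with 15% serum. The labels give neither the age or sex of the mice, nor the day on which unirradiated passage 2 cells were taken, nor which libraries of different groups share a strain. Irradiated cells therefore share a passage number with their unirradiated counterparts, but not necessarily their time in culture.

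Macrophages are the tissue's resident phagocytes, and the lung holds alveolar macrophages in the air spaces and interstitial macrophages in the tissue. Their identity depends on PU.1, the transcription factor encoded by Spi1, and their survival on CSF1, a growth factor made by fibroblasts among other cells and bound by the receptor Csf1r. They recognise debris and microbes through Fc, scavenger and C-type lectin receptors, signal through the adaptors Tyrobp and Fcer1g, and secrete complement C1q and lysozyme.

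Library totals ran from 13.6 to 39.2 M (mega) counts. A pair of libraries stood apart in the number of genes read at equal depth, which was 15037 in Atm-/- passage 8 replicate 3, 17228 in Atm+/+ passage 2 replicate 3 and 20081 or more in the other 13. Atm-/- passage 8 replicate 3 had reads for 8 of the 36 macrophage genes, against 28 and 29 in the other libraries of its group and 33 or more elsewhere. Fits without this pair, chosen after seeing the data, are given beside results that they changed. Fibroblast genes were abundant throughout, as the cell label says: Col1a1 lay between 298.2 and 3096 TPM, the read count divided by gene length and scaled to the library, in all 15 libraries. Atm had reads in every library, at 0.133 to 0.405 TPM, and since the labels do not say which part of the gene is deleted, its counts do not check the genotype.

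To set sequence beside the levels, promoters were read from RefSeq (GRCm38.p6), which held 26 of the 37 members. PU.1, a factor of the ETS family, binds purine-rich sites with the core GAGGAA. That core, or TTCCTC for the other strand, lay within 250 bases before the start of 16 of the 26 members (61.5%), and of 25.85% of all 27025 genes in the table. The longer form GAGGAAGT, searched first, was present in 1 of the 26 (3.85%), C1qc, and in 2.79% of all genes. The windows of 60 bases that follow are written 5′ to 3′ along the gene, with the core in capitals. They come from a complement subunit pair, a scavenger receptor, a lysosomal protease and a pair of leukocyte surface genes whose levels are described below, and none overlaps an annotated exon. A match is a description of letters and not evidence of a bound site.
C1qb (chr4:136886201-136886260, minus strand): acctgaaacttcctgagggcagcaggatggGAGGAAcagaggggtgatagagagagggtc
C1qc (chr4:136893075-136893134, minus strand): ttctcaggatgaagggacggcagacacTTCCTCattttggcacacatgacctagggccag
Marco (chr1:120505138-120505197, minus strand): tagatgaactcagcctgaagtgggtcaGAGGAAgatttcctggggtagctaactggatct
Ctss (chr3:95526595-95526654, plus strand): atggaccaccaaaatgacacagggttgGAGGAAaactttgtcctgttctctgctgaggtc
Ptprc (chr1:138175431-138175490, minus strand): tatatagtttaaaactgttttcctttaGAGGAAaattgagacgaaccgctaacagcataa
Cd53 (chr3:106790156-106790215, minus strand): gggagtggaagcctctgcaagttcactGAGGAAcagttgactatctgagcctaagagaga

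Levels are given as TPM, which is per length and can be compared between genes, in the order of replicates 1, 2 and 3. Lyz2, lysozyme, was the most abundant member in every passage 2 group and took 38.2% to 53.9% of the members' summed TPM in those 9 libraries. Lyz2 has a close copy beside it in the mouse genome, Lyz1, and reads may be shared between them. The members' summed level was 3770.4, 2628 and 4549 TPM in irradiated cells, 408, 378 and 211 TPM in Atm-/- passage 8 cells and 2754, 2052 and 1838 TPM in Atm-/- passage 2 cells. It was 273, 358 and 267 TPM in Atm+/+ passage 8 cells and 4285, 3936 and 4556 TPM in Atm+/+ passage 2 cells. All 9 libraries labelled passage 2 lay above all 6 libraries of passage 8, with and without irradiation. At passage 8 most of the sum was Lgals3, galectin-3, which fibroblasts also make. The other 34 members, without Lyz2 and Lgals3, summed to 41.7, 43.9 and 12.4 TPM in Atm-/- and 49.9, 71.6 and 55.6 TPM in Atm+/+ passage 8 cells.

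The comparison of passage 8 with passage 2 asks what serial culture changes, and it was made in each genotype with separate libraries. Of the 36 members 32 fell in Atm-/- cells and 34 in Atm+/+ cells, and the others did not pass. Among all genes tested, 8.25% fell in Atm-/- cells and 13.5% in Atm+/+ cells, with 13% and 23.3% called in either direction. The members' median log2 fold change was -6.81 in Atm-/- cells and -6.18 in Atm+/+ cells, and -6.56 and -5.98 with members at 0 set to their bounds. The medians of all genes were -0.08 and 0.00. In bulk RNA, fewer macrophages and less macrophage RNA per cell cannot be told apart.

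Spi1 had 0, 0 and 0 TPM in Atm-/- passage 8 cells, against 6.61, 5.94 and 4.51 TPM in Atm-/- passage 2 cells. With 0 reads in that group against 764, it was at least 175-fold lower, from a floor of 3 counts over the group; such floors, and the intervals given below, cover counting error only. In Atm+/+ cells Spi1 had 0.137, 0.323 and 0.0241 TPM at passage 8, against 9.99, 11.3 and 10.8 TPM at passage 2, a log2 fold change of -6.28 (SE 0.60, adjusted p = 2.43e-05, edgeR). The gene of the lineage factor was thus at or near the limit of detection in all 6 passage 8 libraries. Csf1r, the CSF1 receptor, kept 1.42, 2.18 and 2.66 TPM in Atm-/- passage 8 cells, against 6.897, 5.75 and 5.38 TPM at passage 2, and fell by less, with a log2 fold change of -1.12 (SE 0.33, adjusted p = 0.0362, edgeR). It had 2.19, 1.58 and 2.46 TPM in Atm+/+ passage 8 cells, against 9.77, 10.8 and 9.95 TPM at passage 2, and a log2 fold change of -2.53 (SE 0.34, adjusted p = 0.000129, edgeR). The groups did not overlap in either genotype, but the call in Atm-/- cells was lost in 9 of the 15 fits that left out 1 library, with an adjusted p of up to 0.134 without Atm-/- passage 2 replicate 1. Csf1r shares 873 exonic bases with Hmgxb3 on the other strand, so part of the reads counted at passage 8 may not be its own.

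The 3 chains of complement C1q, which opens the classical complement cascade, fell together. C1qa had 0.125, 0.577 and 0 TPM in Atm-/- passage 8 cells, against 175, 112 and 91.9 TPM at passage 2, a log2 fold change of -8.64 (SE 0.82, adjusted p = 1.67e-05, edgeR). In Atm+/+ cells C1qa had 1.16, 3.42 and 1.84 TPM at passage 8, against 378, 245 and 647 TPM at passage 2, a log2 fold change of -7.98 (SE 0.71, adjusted p = 5.24e-06, edgeR). The passage 8 libraries lay far below every passage 2 library, and Atm-/- passage 8 replicate 3 had no read. C1qb changed on the log2 scale by -8.76 (SE 0.76, adjusted p = 8.51e-06, edgeR) in Atm-/- and -8.12 (SE 0.66, adjusted p = 2.93e-06, edgeR) in Atm+/+ cells. C1qc was left with 2 reads in the 3 Atm-/- passage 8 libraries against 5616 at passage 2, a ratio of 0.000519 (95% counting interval 6.28e-05 to 0.00188), and changed on the log2 scale by -7.49 (SE 0.54, adjusted p = 1.48e-06, edgeR) in Atm+/+ cells.

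Tyrobp encodes the adaptor DAP12, which carries signals of Trem2 and other receptors, and Fcer1g encodes the common gamma chain of the Fc receptors. Tyrobp had 0.364, 0.586 and 0 TPM in Atm-/- passage 8 cells, against 97.4, 72.1 and 61.1 TPM at passage 2, a log2 fold change of -7.44 (SE 0.43, adjusted p = 1.1e-06, edgeR). It had 1.24, 1.83 and 1.48 TPM in Atm+/+ passage 8 cells, against 154, 154 and 116 TPM at passage 2, a log2 fold change of -6.75 (SE 0.37, adjusted p = 2.73e-07, edgeR). Its p was the lowest among the members in both genotypes. Fcer1g changed on the log2 scale by -5.52 (SE 0.53, adjusted p = 2e-05, edgeR) in Atm-/- and -6.24 (SE 0.53, adjusted p = 3.65e-06, edgeR) in Atm+/+ cells. Trem2, a receptor for lipids and cell debris, fell in both genotypes but was still read in every passage 8 library, at 0.563, 0.773 and 0.557 TPM in Atm-/- and 0.368, 0.606 and 0.399 TPM in Atm+/+ cells. Of the 12 genes of a list of the kinases and adaptors that act after these receptors, 9 fell in Atm-/- cells and 12 in Atm+/+ cells. Syk, the kinase these adaptors recruit, had 2.98, 1.1 and 1.72 TPM in Atm-/- passage 8 cells against 2.599, 2.38 and 2.603 TPM at passage 2, and 0.449, 0.663 and 0.603 TPM in Atm+/+ passage 8 cells against 4.01, 4.84 and 4.298 TPM at passage 2. Its level overlapped between passages in Atm-/- cells (log2 fold change -0.03, SE 0.31, adjusted p = 0.966, edgeR) and did not in Atm+/+ cells (log2 fold change -3.17, SE 0.34, adjusted p = 2.47e-05, edgeR).

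The Fc receptor genes bind the constant part of antibodies, and all 3 fell in both genotypes. Fcgr2b, the inhibitory receptor, had 0.0613, 0.0705 and 0 TPM in Atm-/- passage 8 cells, against 14.2, 10.3 and 9.07 TPM at passage 2, a log2 fold change of -7.49 (SE 0.49, adjusted p = 2.34e-06, edgeR). In Atm+/+ cells it had 0.183, 0.417 and 0.276 TPM at passage 8, against 21.4, 24.1 and 16.5 TPM at passage 2, a log2 fold change of -6.36 (SE 0.41, adjusted p = 7.84e-07, edgeR). Fcgr1, the high-affinity receptor, had 1 read in the 3 Atm-/- passage 8 libraries and 2 in the 3 of Atm+/+, against 465 and 895 at passage 2 of the same genotype. Fcgr3 was less depleted and changed on the log2 scale by -4.69 (SE 0.57) in Atm-/- and -5.07 (SE 0.56) in Atm+/+ cells. Fcgr2b and Fcgr3 are similar in sequence, and the counting may divide reads between them.

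Among 8 pattern recognition and scavenger receptors, 7 fell in Atm-/- and 8 in Atm+/+ cells. Marco, a scavenger receptor of alveolar macrophages, had 0.0678, 0.0519 and 0 TPM in Atm-/- passage 8 cells, against 35.9, 39.9 and 39.6 TPM at passage 2, a log2 fold change of -9.32 (SE 0.54, adjusted p = 1.1e-06, edgeR). It had 0.602, 2.24 and 1.15 TPM in Atm+/+ passage 8 cells, against 49.4, 85.1 and 62.1 TPM at passage 2, a log2 fold change of -5.84 (SE 0.39, adjusted p = 9.32e-07, edgeR). The groups were apart by more than an order of magnitude in both genotypes. Mrc1, the mannose receptor, changed on the log2 scale by -7.81 (SE 0.58) in Atm-/- and -6.43 (SE 0.47, adjusted p = 1.47e-06, edgeR) in Atm+/+ cells. Cd14, which presents bacterial lipopolysaccharide to Tlr4 and which fibroblasts also make, had 8.38, 14.6 and 4.63 TPM in Atm-/- passage 8 cells, against 40.5, 47.3 and 44.1 TPM at passage 2. In Atm+/+ cells Cd14 had 23.9, 27.4 and 22.2 TPM at passage 8, against 73.2, 83.5 and 58.7 TPM at passage 2. It fell by less than the other receptors that passed, with log2 fold changes of -1.97 (SE 0.24) in Atm-/- and -1.76 (SE 0.24) in Atm+/+ cells. Siglec1, Msr1 and the C-type lectins Clec4n and Clec7a also fell in both genotypes, with log2 fold changes of -7.41 to -5.06 in Atm-/- and -6.81 to -2.71 in Atm+/+ cells. Cd163, the haemoglobin scavenger receptor, had at most 0.349 TPM in any library, and the 3 Atm+/+ passage 8 libraries had 0 reads, against 9, 15 and 28 reads at passage 2, the last in the library that stood apart. It fell in Atm+/+ cells, with and without that library.

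Most of the remaining surface genes fell in both genotypes, and Cd53 and Cx3cr1 did not pass in either. Adgre1, which encodes F4/80, was at 0 reads in the 3 Atm-/- passage 8 libraries against 435 at passage 2, at least 99.5-fold lower. In Atm+/+ cells Adgre1 had 0.0286, 0.0338 and 0.0756 TPM at passage 8, against 3.001, 4.81 and 2.53 TPM at passage 2, a log2 fold change of -6.35 (SE 0.46, adjusted p = 3.79e-06, edgeR). Ptprc, which encodes CD45 of all leukocytes, had 0 reads in Atm-/- passage 8 cells against 124 at passage 2, at least 28.4-fold lower. In Atm+/+ cells Ptprc had 2, 0 and 2 reads at passage 8, against 69, 76 and 0 reads at passage 2, a log2 fold change of -5.06 (SE 1.22, adjusted p = 0.0122, edgeR). The library that stood apart at passage 2 had no Ptprc read, and the groups overlapped. The call was lost in 2 of the 15 fits that left out 1 library, without Atm+/+ passage 8 replicate 2 or 3, with an adjusted p of up to 0.0532. The integrin genes Itgam and Itgax, the tetraspan gene Ms4a7 and the leukocyte genes Laptm5 and Cd52 fell in both genotypes. Itgam shares 3450 exonic bases with Gm49368 on the same strand, and its reads may be divided between them. Cd53, a tetraspanin of leukocytes, had 9.86, 8.24 and 0 TPM in Atm-/- passage 8 cells, against 8.002, 6.697 and 6.24 TPM at passage 2, a log2 fold change of -0.02 (SE 0.77, adjusted p = 0.989, edgeR). In Atm+/+ cells it had 4.496, 7.41 and 8.27 TPM at passage 8, against 9.88, 9.66 and 3.34 TPM at passage 2, a log2 fold change of -0.35 (SE 0.77, adjusted p = 0.769, edgeR). Cd53 was the highest of the 4 leukocyte surface genes in 5 of the 6 passage 8 libraries and the lowest but 1, Ptprc, in the passage 2 groups. Cx3cr1, the fractalkine receptor, had 18 to 35 reads per group at either passage in either genotype and did not pass.

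Of the genes of the phagosome and lysosome, all 5 fell in both genotypes. Lyz2 had 19.2, 32.3 and 10.5 TPM in Atm-/- passage 8 cells, against 1307, 968 and 870.3 TPM at passage 2, a log2 fold change of -5.40 (SE 0.37, adjusted p = 2.58e-06, edgeR). In Atm+/+ cells Lyz2 had 32.4, 65.4 and 45.3 TPM at passage 8, against 1941, 2011 and 1740.5 TPM at passage 2, a log2 fold change of -5.54 (SE 0.38, adjusted p = 9.32e-07, edgeR). Lyz2 nevertheless stayed readable in all 6 passage 8 libraries. Ctss, a cysteine protease that trims the invariant chain, changed on the log2 scale by -6.98 (SE 0.50, adjusted p = 2.58e-06, edgeR) in Atm-/- and -6.13 (SE 0.45, adjusted p = 1.56e-06, edgeR) in Atm+/+ cells. Cd68, a lysosomal membrane protein, kept 15.6, 9.998 and 1.66 TPM in Atm-/- and 7.01, 9.603 and 6.93 TPM in Atm+/+ passage 8 cells, and changed on the log2 scale by -2.30 (SE 0.50) and -3.98 (SE 0.53). Among 13 further lysosomal genes that many cells express, 3 rose in Atm-/- cells, and in Atm+/+ cells 2 rose and 3 fell. F13a1 and Aif1 fell in both genotypes, while Lgals3 fell in Atm+/+ cells (log2 fold change -1.18, SE 0.22, adjusted p = 0.00174, edgeR) and did not pass in Atm-/- cells (log2 fold change 0.17, SE 0.22, adjusted p = 0.659, edgeR).

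**Figure D1:**
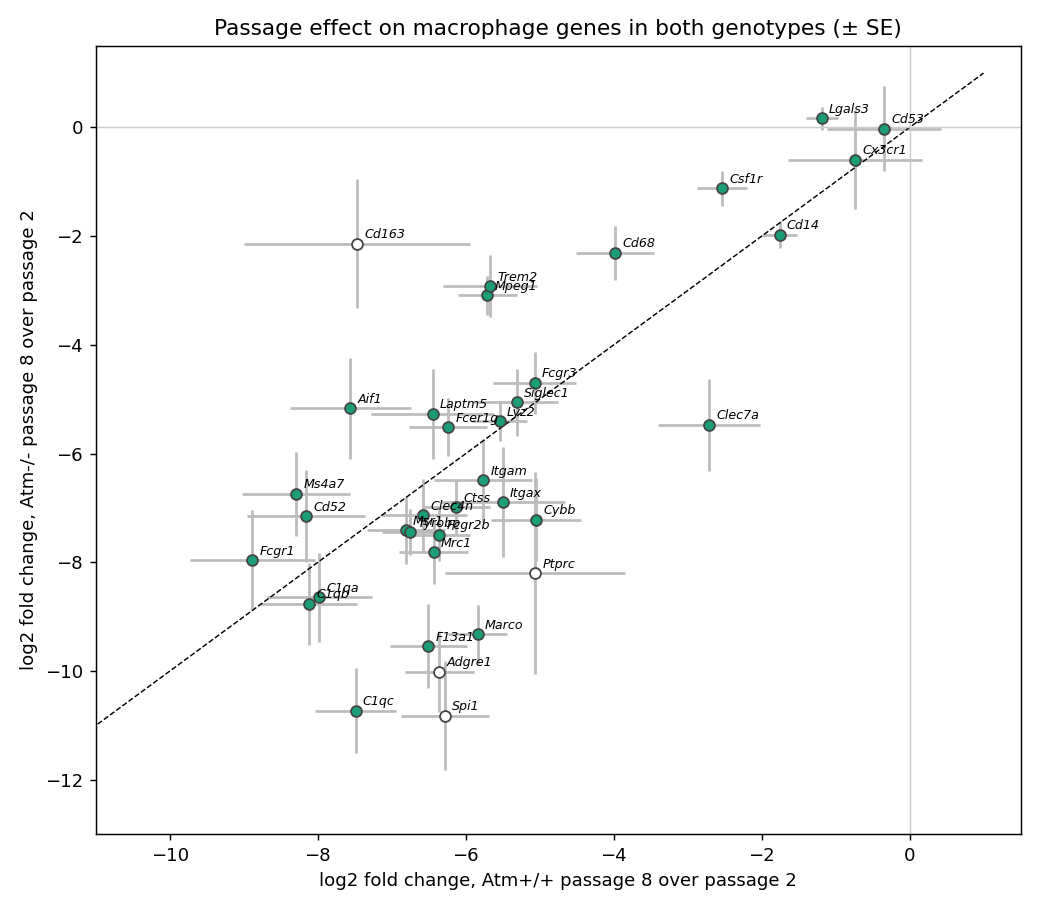
Log2 fold change of passage 8 over passage 2 in Atm-/- cells (vertical) against Atm+/+ cells (horizontal) for the 36 macrophage genes, with bars of 1 SE and a dashed line of equal change. Open circles mark Spi1, Adgre1, Ptprc and Cd163, whose passage 8 group had 0 reads in 1 genotype, so that their fitted position is no bound, and Lgals3, Cd53, Cx3cr1, Cd14 and Csf1r lie nearest to 0.

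Groups did not overlap for 32 members in Atm-/- cells and for 33 in Atm+/+ cells, all lower at passage 8, against 22.5% and 22.6% of all genes lower without overlap. Genes of endothelial cells, another cell type of the lung, moved in the same direction: all 10 of the list fell in both genotypes. Their summed level was 9.21, 13.1 and 30.7 TPM in Atm-/- passage 8 cells, against 256, 335 and 385 TPM at passage 2. In Atm+/+ cells it was 8.15, 6.87 and 6.48 TPM at passage 8, against 414, 676 and 303 TPM at passage 2. Of 7 tested genes of lung epithelial cells, 2 fell in Atm-/- and 6 in Atm+/+ cells, with a median log2 fold change of -2.31 and -6.10. The epithelial sum was 6.33, 4.88 and 4.59 TPM in Atm-/- passage 8 cells, against 7.54, 16.2 and 12.9 TPM at passage 2, and 6.73, 5.82 and 5.79 TPM in Atm+/+ passage 8 cells, against 12.6, 21.8 and 26.6 TPM at passage 2. The part of either list in the macrophage result was not tested. Fibroblast genes did not share the fall in Atm+/+ cells, where 3 of 12 rose and 9 did not pass, and in Atm-/- cells 8 of 12 fell. Without the pair of libraries that stood apart, 32 members fell in Atm-/- and 34 in Atm+/+ cells, beside 5026 and 7418 of all genes called in either direction. There Csf1r changed on the log2 scale by -1.57 (SE 0.25, adjusted p = 0.000522, edgeR) in Atm-/- cells, Laptm5 by -7.07 (SE 0.61, adjusted p = 1.17e-05, edgeR), and Cd53 by 0.56 (SE 0.23, adjusted p = 0.0935, edgeR), against -0.02 with all libraries. In Atm+/+ cells the fold changes of C1qa, C1qb, Aif1 and Trem2 were -7.29, -7.51, -6.41 and -4.79 on that scale, against -7.98, -8.12, -7.56 and -5.67 with all libraries, and all 4 passed in both fits.

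Whether the fall with passage depended on genotype was tested as an interaction. It passed for 3 of the 36 members, 2 with a positive and 1 with a negative difference, beside 4.43% of all genes, 2.46% positive and 1.97% negative. Marco fell further in Atm-/- cells, with a difference in log2 fold change of -3.48 (SE 0.71, adjusted p = 0.0235, edgeR). Mpeg1, the pore-forming perforin-2 of phagocytes, fell less, with a difference of 2.62 (SE 0.49, adjusted p = 0.017, edgeR), and Lgals3 had a difference of 1.35 (SE 0.31, adjusted p = 0.0328, edgeR). Mpeg1 had 0.993, 1.096 and 1.33 TPM in Atm-/- passage 8 cells, against 14.9, 11.9 and 10.6 TPM at passage 2, and 0.663, 0.694 and 0.565 TPM in Atm+/+ passage 8 cells, against 25.1, 21.8 and 35.3 TPM at passage 2. The Atm-/- cells thus lay lower at passage 2 and higher at passage 8. For Spi1, Adgre1 and Ptprc, at 0 reads in Atm-/- passage 8 cells, the fitted difference depends on the prior count. With edgeR no member passed without Atm-/- passage 2 replicate 2 or 3 or Atm+/+ passage 8 replicate 3, where 10 or 11 had an unadjusted p under 0.05. Mpeg1 alone passed without replicate 1 of either passage 2 group, 2 members without Atm+/+ passage 2 replicate 3, 6 without Atm+/+ passage 2 replicate 2, and 8 with DESeq2. Without the pair that stood apart 5 passed, Cd53 (difference 1.15, SE 0.33, adjusted p = 0.0354, edgeR) and Cd68 (difference 1.68, SE 0.45, adjusted p = 0.0349, edgeR) beside these 3, and Mpeg1 had a difference of 1.85. Over all genes that fit called 2556, against 804 with all libraries.

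Atm-/- cells were then set against Atm+/+ cells at the late passage. Lgals3 was higher and 9 members were lower: Spi1, C1qc, Tyrobp, Fcgr2b, Cd14, Mrc1, Marco, Adgre1 and F13a1. That is 10 of 36, beside 9.32% of all genes called in either direction, 5.03% higher and 4.29% lower. The median log2 fold change of the members was -1.18, or -1.13 with bounds, and that of all genes was -0.08. The groups did not overlap for 14 members lower and 3 higher (Lgals3, Mpeg1 and Trem2), beside 23% and 16.8% of all genes.

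Most of these calls rested on few reads, and some of these genes, such as Spi1 and Adgre1, entered the test through their reads in passage 2 libraries. Marco had 3, 2 and 0 reads in Atm-/- cells, against 25, 79 and 45 reads in Atm+/+ cells, a log2 fold change of -4.49 (SE 0.60, adjusted p = 0.000973, edgeR). C1qc had 0, 2 and 0 reads in Atm-/- cells, against 25, 39 and 22 reads in Atm+/+ cells, a level ratio of 0.0305 (95% counting interval 0.00363 to 0.113). Spi1 had 0 reads in Atm-/- cells against 6, 12 and 1 in Atm+/+ cells, at least 4.83-fold lower, and Adgre1 had 0 reads in Atm-/- cells against 2, 2 and 5 in Atm+/+ cells, at least 2.29-fold lower. In every one of these genes the Atm-/- libraries lay below all Atm+/+ libraries. F13a1, the A subunit of clotting factor XIII, had 1 read in the 3 Atm-/- libraries against 36 in Atm+/+ cells, a ratio of 0.0364 (95% counting interval 0.000897 to 0.216). Tyrobp changed on the log2 scale by -1.80 (SE 0.49, adjusted p = 0.0364, edgeR), Fcgr2b by -2.24 (SE 0.56, adjusted p = 0.0264, edgeR) and Mrc1 by -2.51 (SE 0.71, adjusted p = 0.0419, edgeR).

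Cd14 and Lgals3 were the called members with many reads. Cd14 had 8.38, 14.6 and 4.63 TPM in Atm-/- passage 8 cells, against 23.9, 27.4 and 22.2 TPM in Atm+/+ passage 8 cells, a log2 fold change of -1.16 (SE 0.24, adjusted p = 0.00951, edgeR). Lgals3 had 347, 301 and 188 TPM in Atm-/- passage 8 cells, against 191, 221 and 166 TPM in Atm+/+ passage 8 cells, a log2 fold change of 0.81 (SE 0.22, adjusted p = 0.0349, edgeR). The Lgals3 levels overlapped in TPM and not in normalised counts. The log2 fold change of Lyz2 was -0.96 (SE 0.32), that of C1qa -2.77 (SE 0.85), C1qb -2.66 (SE 0.81), Csf1r 0.39 (SE 0.33), Fcer1g -0.79 (SE 0.54) and Cd68 0.43 (SE 0.49), and none of these 6 passed.

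Markers of other cells differed as well. Of 10 endothelial genes 4 were higher in Atm-/- than in Atm+/+ cells at passage 8, or 1 without the pair of libraries that stood apart, and of 12 fibroblast genes 10 were lower and 1 was higher. Summed fibroblast levels were 4576, 5718 and 2761 TPM in Atm-/- cells, against 13273, 11368 and 14538 TPM in Atm+/+ cells, and the part of either list in the result was not tested. Without the pair of libraries that stood apart 6 members passed: Mpeg1 (log2 fold change 0.85, SE 0.28, adjusted p = 0.0402, edgeR) and Lgals3 higher, and Spi1, C1qc, Cd14 and Marco lower. That fit called 4629 of all genes, against 1693 with all libraries. Leaving out Atm-/- passage 8 replicate 1 or 3, or Atm+/+ passage 8 replicate 3, gave 4 calls each and leaving out Atm+/+ passage 8 replicate 2 gave 3. C1qc, Cd14 and Marco passed in all 15 such fits. In an edgeR fit of the 6 passage 8 libraries alone none of the 20 members tested passed, 9 of them with an unadjusted p under 0.05. The remaining members had too few reads in those 6 libraries to be tested.

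**Figure D2:**
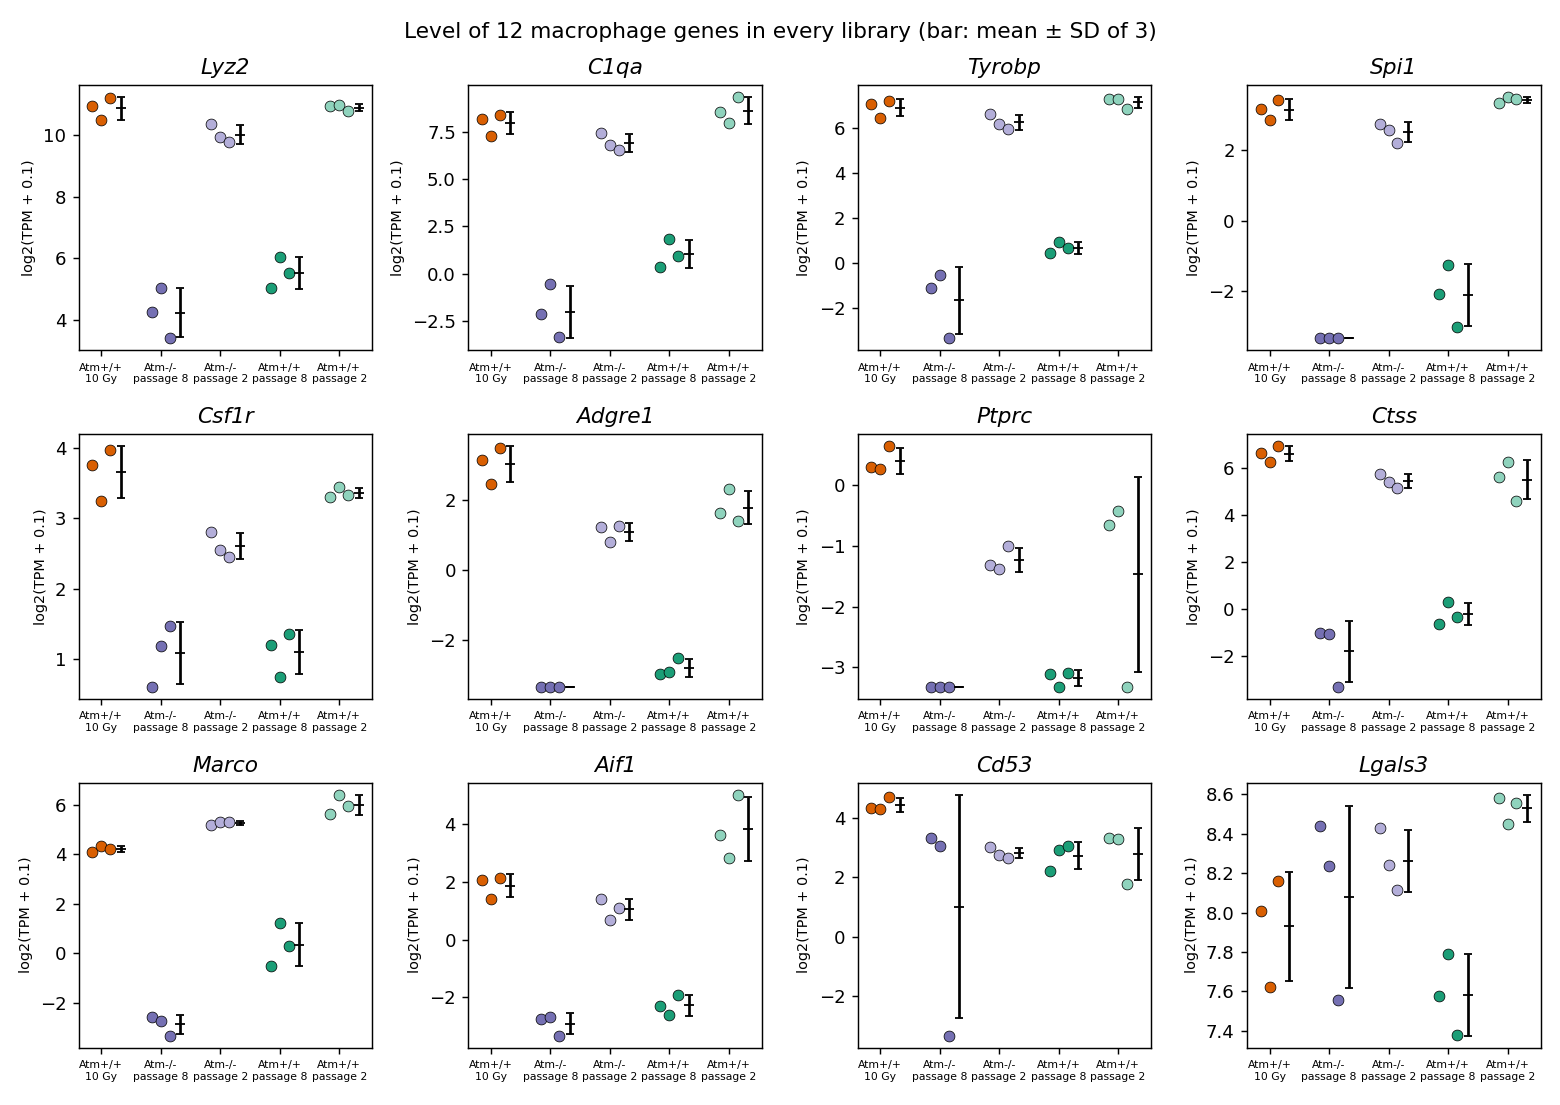
Level of 12 macrophage genes as log2(TPM + 0.1) in every library, by group, with the mean and SD of 3 libraries beside the points and a scale of its own in each panel. Spi1 and Adgre1 sit at the floor in all 3 Atm-/- passage 8 libraries, Ptprc and Ctss are highest in irradiated cells, and Marco and Aif1 are higher in Atm+/+ passage 2 cells than in irradiated and Atm-/- cells.

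In early cultures, the question is which macrophage genes differ between Atm-/- and Atm+/+ cells at passage 2. Of 36 members 35 had a fitted value below 0, with a median of -1.12 against 0.04 for all genes, but 1 passed the test, beside 0.969% of all genes (0.341% lower). That gene was Aif1, a calcium-binding protein of macrophage membrane ruffles. Aif1 had 2.54, 1.504 and 2.03 TPM in Atm-/- cells, against 12.2, 7.002 and 32.5 TPM in Atm+/+ cells, a log2 fold change of -3.49 (SE 0.62, adjusted p = 0.0164, edgeR). The levels did not overlap, and the Atm+/+ library that stood apart had the highest. Without that library the log2 fold change was -2.34 and still passed. The call was lost when any of the 3 Atm-/- passage 2 libraries was left out, with an adjusted p of up to 0.111, and in a fit of the 6 passage 2 libraries alone, where Cd14 passed in its place.

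The most abundant members were among those that did not pass. Mpeg1, with the next lowest p, had 14.9, 11.9 and 10.6 TPM in Atm-/- cells, against 25.1, 21.8 and 35.3 TPM in Atm+/+ cells, a log2 fold change of -1.46 (SE 0.32, adjusted p = 0.0544, edgeR). Lyz2 had 1307, 968 and 870.3 TPM in Atm-/- cells, against 1941, 2011 and 1740.5 TPM in Atm+/+ cells, a log2 fold change of -1.11 (SE 0.31, adjusted p = 0.13, edgeR). Spi1 had 6.61, 5.94 and 4.51 TPM in Atm-/- cells, against 9.99, 11.3 and 10.8 TPM in Atm+/+ cells, a log2 fold change of -1.18 (SE 0.45, adjusted p = 0.262, edgeR). In each of the 3 genes every Atm-/- library lay below every Atm+/+ library. The same was true of 24 members, while 12.1% of all genes lay lower without overlap. The C1q chains differed on the log2 scale by -2.10 (SE 0.53), -2.02 (SE 0.49) and -1.64 (SE 0.41) for C1qa, C1qb and C1qc, and Tyrobp by -1.11 (SE 0.28), Fcer1g by -1.51 (SE 0.42), Csf1r by -1.02 (SE 0.32), Adgre1 by -0.95 (SE 0.34), Cd68 by -1.25 (SE 0.47) and Ptprc by -0.36 (SE 0.89), none with an adjusted p under 0.05. Clec7a, the beta-glucan receptor Dectin-1, was the member with a positive log2 fold change, 0.50 (SE 0.62, adjusted p = 0.692, edgeR).

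The number that passed depended on the test and on single libraries. DESeq2 called 17 members lower, and the fit of 13 libraries called 7, Csf1r, Tyrobp, Fcer1g, Cd14, Ms4a7, Mpeg1 and Aif1. Over all genes they called 918 and 989, against 176 with edgeR on all libraries. Leaving out Atm+/+ passage 2 replicate 2 gave 13, Atm-/- passage 8 replicate 3 gave 11 and Atm-/- passage 8 replicate 2 gave 2.

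A list of 47 further macrophage and myeloid genes, none of them a member, was read beside them. Among the 44 tested the median log2 fold change was -1.11, and 34 lay lower in Atm-/- cells without overlap. None of the 44 passed in edgeR, 26 of them with an unadjusted p under 0.05. The fit of 13 libraries called 11 of the 44 lower, and 989 of all genes, against 176 with all libraries. Their summed level was 286, 241 and 223 TPM in Atm-/- cells, against 419, 426 and 507 TPM in Atm+/+ cells, so the groups did not overlap. Csf1, the growth factor, differed the other way: it had 173, 143 and 124 TPM in Atm-/- cells, against 62.9, 56.9 and 56.3 TPM in Atm+/+ cells, and was higher by a log2 fold change of 1.06 (SE 0.21, adjusted p = 0.03, edgeR). Endothelial genes had a median log2 fold change of -0.41, with summed levels of 256, 335 and 385 TPM in Atm-/- cells, against 414, 676 and 303 TPM in Atm+/+ cells, and their part in the result was not tested.

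The comparison of irradiated with unirradiated Atm+/+ passage 2 cells asks what a dose given to induce premature senescence changes after 10 days. It shares the Atm+/+ passage 2 libraries with the comparison above. Of the 36 members Marco, Aif1, Lgals3, Cd14 and Fcer1g fell and 31 did not pass, beside 27.5% of all genes called in either direction and 16.5% lower. The median log2 fold change of the members was -0.62 and that of all genes -0.01. TPM ran higher in irradiated cells than the normalised counts behind these fold changes, with a median of all genes of 0.32 on log2(TPM + 1). Lower without overlap were 10 members and higher without overlap 3, beside 27.7% and 27.3% of all genes.

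Marco had 16.9, 20.01 and 18.7 TPM in irradiated cells, against 49.4, 85.1 and 62.1 TPM in unirradiated cells, a log2 fold change of -2.24 (SE 0.33, adjusted p = 0.000515, edgeR). Aif1 had 4.11, 2.57 and 4.27 TPM in irradiated cells, against 12.2, 7.002 and 32.5 TPM in unirradiated cells, a log2 fold change of -2.83 (SE 0.60, adjusted p = 0.00503, edgeR). Lgals3 had 257, 197 and 286 TPM in irradiated cells, against 383, 349.9 and 377 TPM in unirradiated cells, a log2 fold change of -1.04 (SE 0.22, adjusted p = 0.00468, edgeR). In each of these the irradiated libraries lay below all unirradiated ones, and the 3 passed in all 15 fits that left out a library. The unirradiated library that stood apart had the highest Aif1 level, and without it the log2 fold change of Aif1 was -1.64, the one nearest to 0 among those fits. Cd14 had 50.6, 36.7 and 56.4 TPM in irradiated cells, against 73.2, 83.5 and 58.7 TPM in unirradiated cells, a log2 fold change of -0.996 (SE 0.23, adjusted p = 0.00792, edgeR). Fcer1g had 95.2, 70.03 and 129 TPM in irradiated cells, against 193, 143 and 172 TPM in unirradiated cells, a log2 fold change of -1.25 (SE 0.41, adjusted p = 0.0382, edgeR), a call that was lost in 12 of those 15 fits.

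Lyz2, Spi1, Csf1r, Tyrobp and Cd68, which mark macrophages in general, did not pass, and neither did the C1q chains, which are also used to mark interstitial and resident macrophages. Aif1, Fcer1g and Cd14, which are not confined to alveolar macrophages either, fell, as given above. Lyz2 had 1944, 1417 and 2346 TPM in irradiated cells, against 1941, 2011 and 1740.5 TPM in unirradiated cells, a log2 fold change of -0.43 (SE 0.31, adjusted p = 0.313, edgeR). Spi1 had 8.87, 7.16 and 10.8 TPM in irradiated cells, against 9.99, 11.3 and 10.8 TPM in unirradiated cells, a log2 fold change of -0.70 (SE 0.45, adjusted p = 0.258, edgeR). Csf1r had 13.4, 9.38 and 15.5 TPM in irradiated cells, against 9.77, 10.8 and 9.95 TPM in unirradiated cells, a log2 fold change of -0.11 (SE 0.31, adjusted p = 0.817, edgeR). The ranges of Lyz2 and Csf1r overlapped between the groups. C1qa had 286, 157 and 333 TPM in irradiated cells, against 378, 245 and 647 TPM in unirradiated cells, and C1qa, C1qb and C1qc differed on the log2 scale by -1.25 (SE 0.52), -1.20 (SE 0.48) and -0.68 (SE 0.40) without passing. Tyrobp differed on the log2 scale by -0.62 (SE 0.28) and Cd68 by -0.77 (SE 0.47), also without passing.

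A few members lay higher in irradiated cells without passing. Adgre1 had 8.71, 5.38 and 10.9 TPM in irradiated cells, against 3.001, 4.81 and 2.53 TPM in unirradiated cells, a log2 fold change of 0.89 (SE 0.33, adjusted p = 0.066, edgeR). Ptprc had 1.13, 1.101 and 1.47 TPM in irradiated cells, against 0.536, 0.644 and 0 TPM in unirradiated cells, a log2 fold change of 1.36 (SE 0.89, adjusted p = 0.273, edgeR). Cd53 had 19.9, 19.4 and 25.98 TPM in irradiated cells, against 9.88, 9.66 and 3.34 TPM in unirradiated cells, a log2 fold change of 1.15 (SE 0.78, adjusted p = 0.282, edgeR). Every irradiated library lay above every unirradiated one in these 3 of the 36 members, beside 27.3% of all genes. In TPM the unirradiated library that stood apart was the lowest in each of the 3. Without it and its counterpart in Atm-/- passage 8, Adgre1 (log2 fold change 0.90, SE 0.29, adjusted p = 0.0234, edgeR), Ptprc (log2 fold change 0.85, SE 0.30, adjusted p = 0.0355, edgeR) and Cd53 (log2 fold change 0.92, SE 0.23, adjusted p = 0.00599, edgeR) passed as higher and 6 members as lower. That fit called 8561 of all genes, against 4998 with all libraries, so calls were common at large.

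The split of calls also depended on the scale. On log2(TPM + 1), with the shift of all genes given above, limma called 3 members higher (Adgre1, Ptprc and Ctss) and 3 lower (Marco, Aif1 and Lgals3), and on log2(TPM + 0.1) it called 2 in each direction. Leaving out Atm+/+ passage 2 replicate 2 gave 11 calls and Atm-/- passage 8 replicate 3 gave 9.

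**Figure D3:**
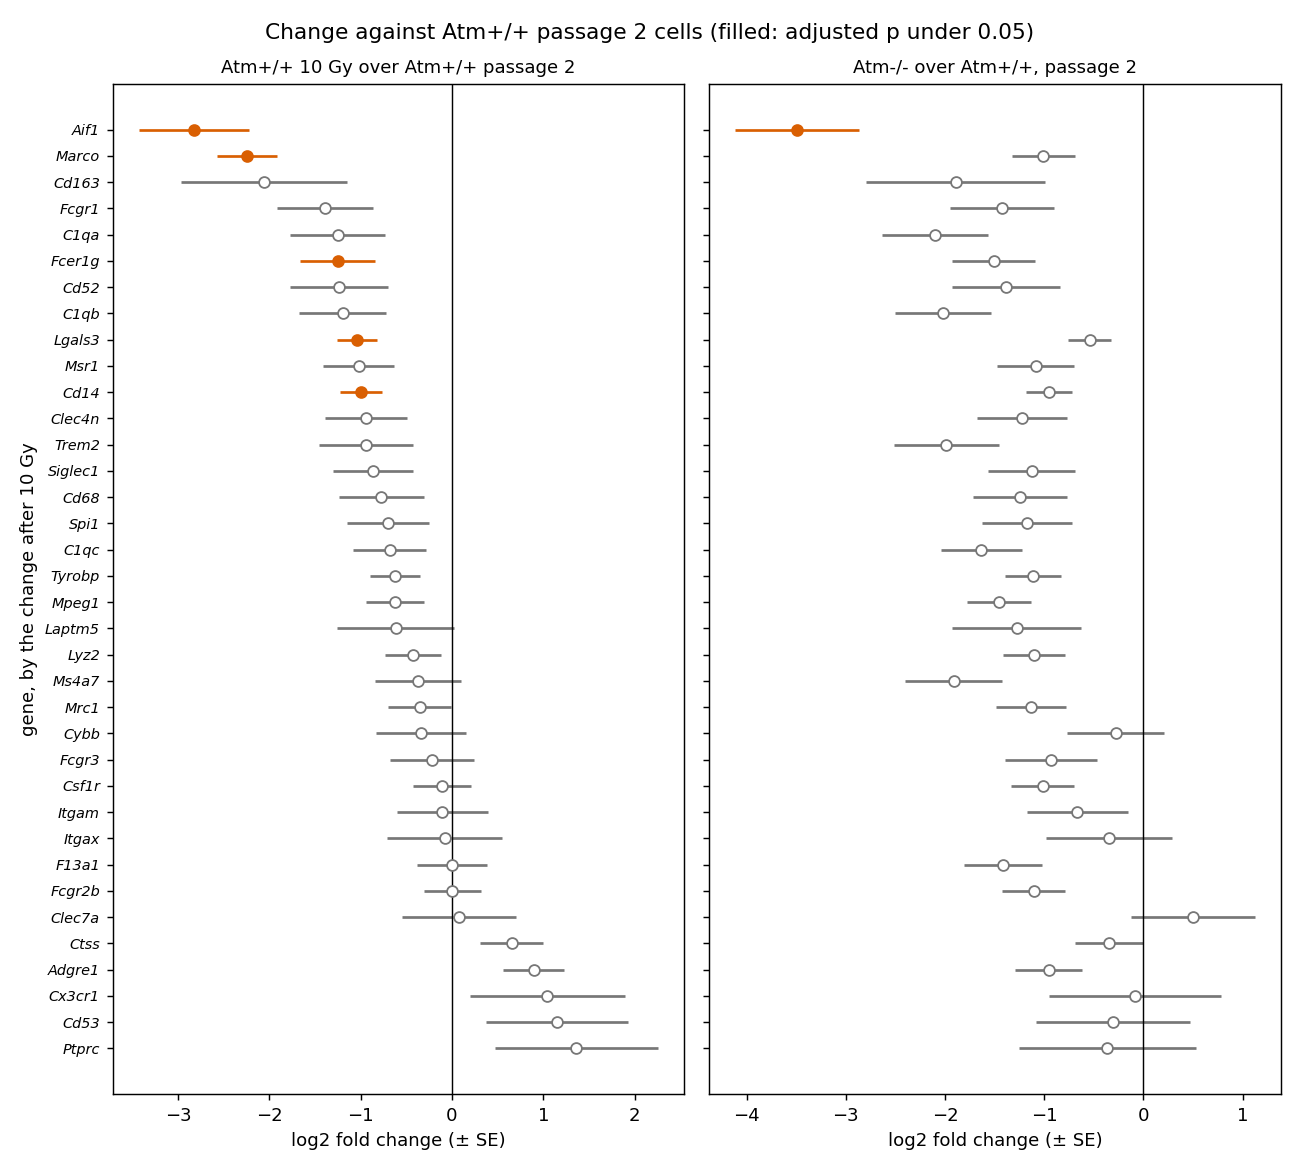
Log2 fold change of each macrophage gene in irradiated over unirradiated Atm+/+ passage 2 cells (left) and in Atm-/- over Atm+/+ passage 2 cells (right), with bars of 1 SE and filled points for an adjusted p under 0.05. Both panels share the Atm+/+ passage 2 libraries, genes are ordered by the left panel, and Aif1 lies lowest in both.

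Genes used to tell apart the macrophages of the lung were read from separate lists. Among 10 tested genes of alveolar macrophages, 6 fell after irradiation and 4 did not pass. Chil3, a chitinase-like protein of alveolar macrophages, had 10.3, 14.4 and 13.1 TPM in irradiated cells, against 64.5, 133 and 45.4 TPM in unirradiated cells, a log2 fold change of -3.02 (SE 0.41, adjusted p = 0.000342, edgeR). Car4, a carbonic anhydrase, had 0.426, 0.708 and 0.638 TPM in irradiated cells, against 9.83, 18.9 and 9.13 TPM in unirradiated cells, a log2 fold change of -4.78 (SE 0.40, adjusted p = 8.09e-06, edgeR). The members Marco, Mrc1 and Itgax are also used to mark this cell type. Marco fell, as described above, while Mrc1 and Itgax did not pass. Mean levels were 7.54 TPM for Mrc1 and 1.97 TPM for Itgax in irradiated cells, against 7.19 and 1.54 TPM in unirradiated cells. The summed level of the alveolar list was 49.4, 56.4 and 52.4 TPM in irradiated cells, against 171, 291 and 108 TPM in unirradiated cells, with no overlap. Part of this sum was Fabp4, at 18.02, 22.75 and 16.25 TPM in irradiated and 55.19, 77.32 and 29.11 TPM in unirradiated cells. Fabp4 kept 13.94, 16.44 and 15.76 TPM in Atm+/+ passage 8 cells, where Spi1 was near the limit of detection. Which cells its reads came from was not tested.

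Of 9 tested genes of interstitial and other resident macrophages, Pf4, Cbr2, Stab1 and Lyve1 fell. The members C1qa, C1qb, C1qc, Cd163, Ms4a7 and Cx3cr1, also used to mark these cells, did not pass. Pf4, a chemokine of platelets and of resident macrophages, had 315, 165 and 418 TPM in irradiated cells, against 819.9, 576 and 1180 TPM in unirradiated cells, a log2 fold change of -2.04 (SE 0.46, adjusted p = 0.00648, edgeR). Folr2, the folate receptor of resident macrophages, had 3.43, 1.71 and 3.595 TPM in irradiated cells, against 0.444, 0.929 and 0.552 TPM in unirradiated cells, a log2 fold change of 1.79 (SE 0.90, adjusted p = 0.149, edgeR). It was higher in every irradiated library without passing. Car4, Stab1 and Lyve1 are also made by endothelial cells, of whose 10 listed genes 7 fell after irradiation. The endothelial sum was 119, 197 and 66.5 TPM in irradiated cells, against 414, 676 and 303 TPM in unirradiated cells. Of 7 tested lung epithelial genes 6 fell too, with sums of 5.04, 4.79 and 6.07 TPM in irradiated cells, against 12.6, 21.8 and 26.6 TPM in unirradiated cells. The part of either list in these results was not tested.

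Irradiated cells were also set against Atm+/+ passage 8 cells, which compares a state after a single dose with one after serial culture. Of the 36 members 31 were higher in irradiated cells, beside 4.3% of all genes higher and 6.89% called in either direction. The median log2 fold change of the members was 5.50 and that of all genes -0.01. Irradiated libraries lay above all Atm+/+ passage 8 libraries for 35 members, beside 22.8% of all genes. This comparison uses libraries of both contrasts above and is not separate support for either.

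Tyrobp had 132, 87.4 and 147 TPM in irradiated cells, against 1.24, 1.83 and 1.48 TPM in Atm+/+ passage 8 cells, a log2 fold change of 6.13 (SE 0.37, adjusted p = 3.26e-06, edgeR). Ctss had 99.5, 77.2 and 122 TPM in irradiated cells, against 0.547, 1.13 and 0.687 TPM in Atm+/+ passage 8 cells, a log2 fold change of 6.78 (SE 0.46, adjusted p = 3.26e-06, edgeR). Fcgr2b had 27.01, 17.7 and 37.6 TPM in irradiated cells, against 0.183, 0.417 and 0.276 TPM in Atm+/+ passage 8 cells, a log2 fold change of 6.36 (SE 0.41, adjusted p = 3.26e-06, edgeR). The groups were more than an order of magnitude apart in all 3. On the log2 scale Lyz2 was higher by 5.11 (SE 0.37, adjusted p = 5.34e-06, edgeR), C1qc by 6.80 (SE 0.53, adjusted p = 8.45e-06, edgeR), Spi1 by 5.58 (SE 0.58, adjusted p = 0.000142, edgeR) and Adgre1 by 7.25 (SE 0.47, adjusted p = 8.34e-06, edgeR). On the same scale Csf1r was higher by 2.43 (SE 0.33), Cd68 by 3.20 (SE 0.51), Marco by 3.60 (SE 0.36) and Ptprc by 6.42 (SE 1.24).

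The 5 members that did not pass were Cd14, Cd163, Cx3cr1, Cd53 and Lgals3, of which the first 4 passed as higher without the pair of libraries that stood apart. Lgals3 overlapped between the groups (log2 fold change 0.14, SE 0.22, adjusted p = 0.884, edgeR), and the other 4 were higher in each irradiated library than in any of Atm+/+ passage 8. All 10 endothelial genes were higher in irradiated cells too, with summed levels of 119, 197 and 66.5 TPM, against 8.15, 6.87 and 6.48 TPM in Atm+/+ passage 8 cells. Their part in the result was not tested. Fibroblast genes overlapped in their sum, at 12403, 11508.5 and 11739.5 TPM in irradiated cells, against 13273, 11368 and 14538 TPM in Atm+/+ passage 8 cells.

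Csf1, the macrophage growth factor, did not follow the macrophage genes. It had 774, 630.5 and 780.1 TPM in irradiated cells and 976, 819 and 458.5 TPM in Atm-/- passage 8 cells. It had 173, 143 and 124 TPM in Atm-/- passage 2, 601.5, 525 and 718 TPM in Atm+/+ passage 8 and 62.9, 56.9 and 56.3 TPM in Atm+/+ passage 2 cells. The highest levels were thus reached in the irradiated group and both passage 8 groups, and the lowest in Atm+/+ passage 2 cells. On the log2 scale Csf1 rose by 3.19 (SE 0.22, adjusted p = 2.93e-06, edgeR) after irradiation, by 2.65 (SE 0.22, adjusted p = 6.53e-06, edgeR) with passage in Atm-/- cells and by 3.14 (SE 0.22, adjusted p = 1.4e-06, edgeR) with passage in Atm+/+ cells. Il34, the other ligand of Csf1r, lay between 1.40 and 3.38 TPM in all 15 libraries and did not pass in any of these comparisons.

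**Figure D4:**
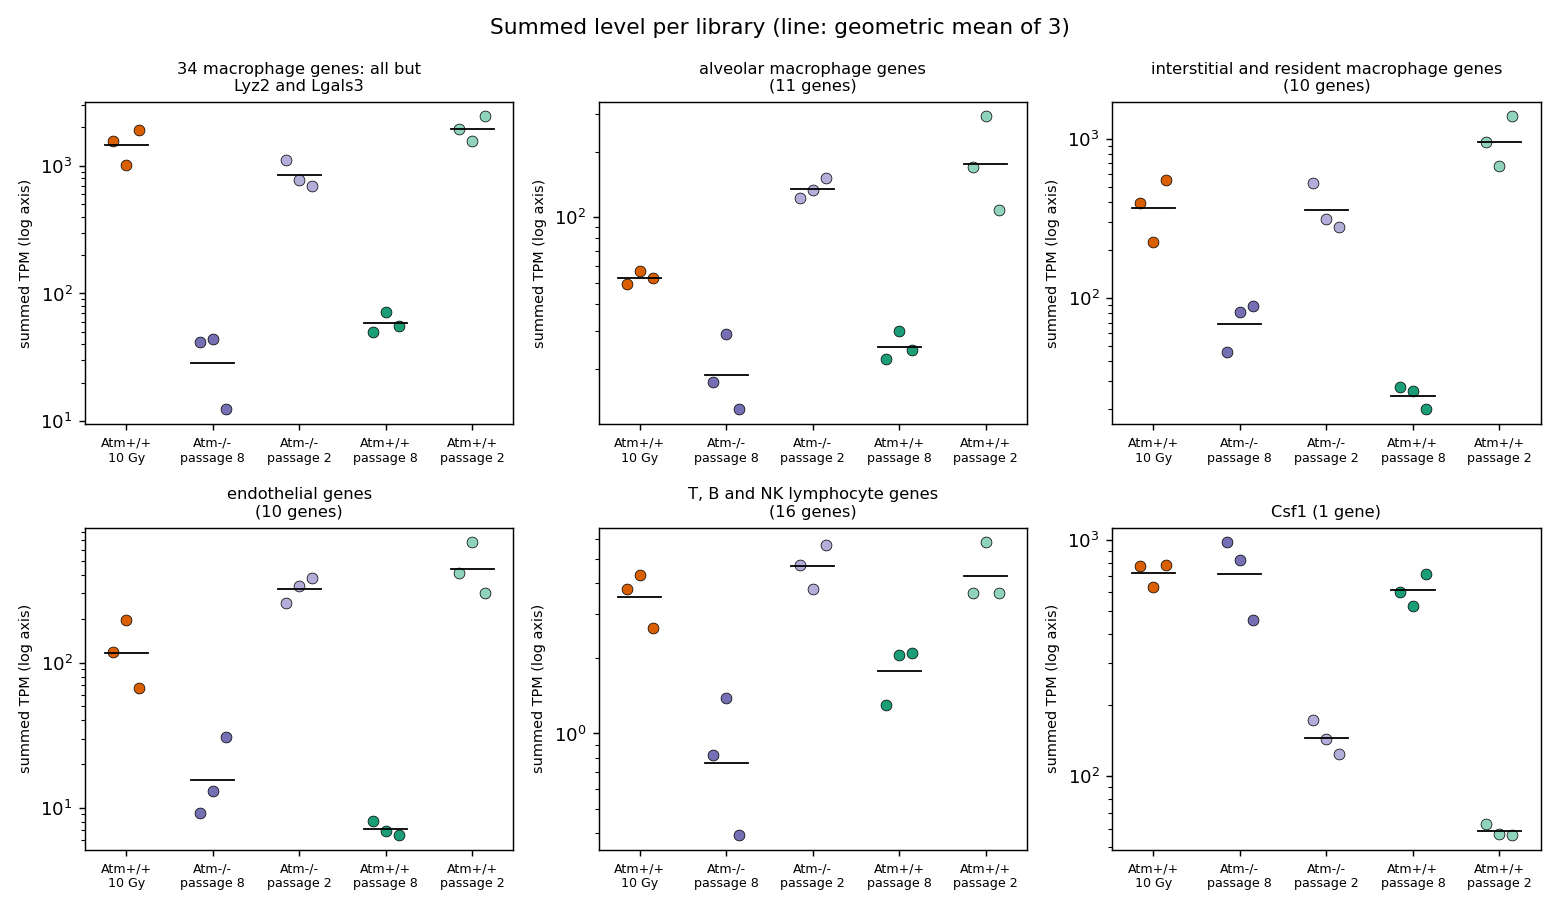
Summed TPM per library, on log axes, of 34 macrophage genes, of lists of alveolar macrophage, interstitial and resident macrophage, endothelial and lymphocyte genes, and of Csf1 alone, with a line at the geometric mean of each group. Macrophage and endothelial sums are low in both passage 8 groups, the alveolar sum is lower in irradiated than in unirradiated passage 2 cells, and Csf1 is lowest in Atm+/+ passage 2 cells.

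Across the 15 libraries most members varied together. The correlation of a member's log2(TPM + 0.1) with the mean of the other members was over 0.9 for 31 of 36, with Lyz2 at r = 0.999. The points share groups, depth and library quality, and the libraries fall into a passage 2 and a passage 8 cluster, so these values are a description only. The other 5 were Ptprc (r = 0.81), Cd163 (r = 0.73), Cx3cr1 (r = 0.52), Lgals3 (r = 0.51) and Cd53 (r = 0.51). Within the 9 libraries labelled passage 2, 12 members kept r over 0.9, among them Lyz2 (0.99), Mrc1 (0.98), Spi1 (0.96) and Tyrobp (0.96). Lowest there were Clec7a (r = -0.37) and Marco (r = -0.09), followed by Cybb (0.14), Cx3cr1 (0.16), Ptprc (0.16), Lgals3 (0.25) and Itgax (0.29). Marco was lower in irradiated than in Atm-/- passage 2 cells, and Clec7a spread from 0.681 to 4.399 TPM among the Atm+/+ passage 2 libraries alone.

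Genes of other leukocytes were read as well. Of 16 genes of T, B and NK lymphocytes, Cd8a and Ncr1 had 0 reads in all libraries, and Cd3e and Ms4a1 at most 0.0603 TPM. The summed lymphocyte level was 3.79, 4.31 and 2.64 TPM in irradiated, 0.818, 1.39 and 0.392 TPM in Atm-/- passage 8, 4.73, 3.799 and 5.67 TPM in Atm-/- passage 2, 1.302, 2.05 and 2.11 TPM in Atm+/+ passage 8 and 3.65, 5.83 and 3.65 TPM in Atm+/+ passage 2 cells. Lck, a kinase of T cells, had 0.398, 0.686 and 0.0813 TPM in Atm-/- passage 8, against 1.94, 2.26 and 2.47 TPM in Atm-/- passage 2 cells. Of the 4 lymphocyte genes tested, Cd2, Cd4 and Lck fell with passage in Atm-/- cells, and Cd2 and Cd4 in Atm+/+ cells. Their part in the fall of Ptprc, Laptm5 and Cd52, which lymphocytes share with macrophages, was not tested. Neutrophil genes summed to 1.43 to 17.7 TPM per library, of which S100a9 had at most 0.206 TPM. S100a8, its partner in calprotectin, had 9.57, 15.3 and 13.1 TPM in irradiated cells, against 2.95, 2.73 and 2.003 TPM in unirradiated Atm+/+ passage 2 cells, a log2 fold change of 1.87 (SE 0.56, adjusted p = 0.0253, edgeR). It was higher in every irradiated library. Genes of dendritic cells summed to 37.6 to 114 TPM per library, most of it the class II gene H2-Ab1, which rose with passage in both genotypes and after irradiation, while Cd74 and Ccr7 of the same list fell in those comparisons. Genes of mast cells and basophils summed to 4.73 to 18.4 TPM per library.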

How the data were processed

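RNA was sequenced from 15 cultures, 3 in each of 5 groups taken from the sample titles. The authors deposited whole-number read counts per gene and, in a second table, TPM per gene. SAMtools 1.3.1, featureCounts and the genome build mm10 are named per the submitters' processing notes; which aligner and annotation were used, and whether strand was, is not given in the sources used here. If strand was not used, reads of a gene and of a partner on the other strand cannot be told apart. Gene symbols were matched through GENCODE vM21, which named 48058 gene IDs and left 382 without a symbol. The totals of 13.6 to 39.2 M counts limit what can be read near 0.

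Counts were tested with edgeR 4.0.16 in R 4.3.3: genes kept by filterByExpr, TMM scaling, 1 mean per group over all 15 libraries, robust quasi-likelihood tests, and Benjamini-Hochberg adjustment over the 18167 genes tested. The threshold was 0.05, and a gene rose, fell or passed only under it. Standard errors were taken from the F statistic, as the absolute log2 fold change over its square root. TPM served for levels, and for alternatives with limma 3.58.1 on log2(TPM + 0.1) and log2(TPM + 1) of genes over 0.5 TPM in at least 3 libraries. Whether groups overlap was read from TMM-normalised CPM. Procedures were tested on simulated counts. Replicates of a group correlated with r of 0.892 to 0.993 and no libraries held identical values.

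Other alternatives were DESeq2 1.42.0, its size factors in edgeR, no filter, a stricter filter of 1 CPM and a mean count of 50, a fit of only the groups compared, a replicate block, and leaving out each library. The fit of 13 libraries, without Atm+/+ passage 2 replicate 3 and Atm-/- passage 8 replicate 3, was chosen after seeing the data. The members and all lists were chosen with earlier results of these data known. Full values were given for up to 6 members with the lowest p in each comparison and for a set of identity markers; of other lists up to 4 genes were named by level or p. Syk, Folr2, Il34, Cd53, Clec7a, Lck, Cd2, Cd4, Cd74, Ccr7, H2-Ab1, S100a8 and S100a9 were singled out after their values were seen. Promoters came from RefSeq, build GRCm38.p6, and were searched for GAGGAA on both strands after GAGGAAGT had been searched.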

Additional observations from a re-analysis of the deposited data

Results flagged for a closer look

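The passage effect differed between the genotypes in 3 of the 36 macrophage genes, by the test of the difference itself. Among all genes it differed in 4.43%, with a positive difference in 2.46% and a negative one in 1.97%. For Marco the passage effect in Atm-/- cells minus that in Atm+/+ cells was -3.48 on the log2 scale, for Mpeg1 it was 2.62 and for Lgals3 it was 1.35, with edgeR adjusted p = 0.0235, 0.0170 and 0.0328. Marco had 3, 2 and 0 reads in the Atm-/- passage 8 libraries, against 25, 79 and 45 reads in those of Atm+/+. Mpeg1 had 99, 95 and 65 reads in the Atm-/- passage 8 libraries, against 62, 55 and 50 reads in those of Atm+/+. All 3 differences passed together in the replicate block, and none passed without Atm-/- passage 2 replicate 2 or 3 or Atm+/+ passage 8 replicate 3. Of the 15 fits that left out 1 library, the difference was lost in 9 for Lgals3, in 5 for Marco and in 3 for Mpeg1, with an adjusted p of up to 0.108, 0.0632 and 0.0668.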

How the results depend on the processing

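The number of macrophage genes called in both passage comparisons, and between irradiated and Atm+/+ passage 8 cells, stayed within 1.5 times its value under every alternative run. For Atm-/- against Atm+/+ cells at passage 2, where 1 passed, DESeq2 gave 17, no filter 2, limma on log2(TPM + 1) 4 and on log2(TPM + 0.1) 3, and 13 libraries 7. At passage 8, where 10 passed, DESeq2 gave 17, limma on log2(TPM + 1) 5, 13 libraries 6 and edgeR on only the groups compared 0, with 9 of 20 at an unadjusted p under 0.05. For irradiation, where 5 passed, DESeq2 gave 8 and 13 libraries 9, and over all genes they called 6719 and 8561, against 4998. For the difference of passage effects, where 3 passed, DESeq2 gave 8, only the groups compared 1 and 13 libraries 5. The cause was not tested, beyond the smaller number of libraries or genes in 2 of these fits. Leaving out 1 library at a time gave 0 to 13 and 3 to 13 for genotype at passage 2 and 8, 31 to 32 and 32 to 34 for passage in Atm-/- and Atm+/+ cells, 4 to 11 and 30 to 33 for irradiated against Atm+/+ passage 2 and passage 8 cells, and 0 to 6 for the difference. Single-gene values and ratios of the members' summed level were tallied together. Of these, 1381 kept their direction and side of the threshold or their level, 102 were no longer past it, 7 newly passed and 9 moved. All 9 that moved were ratios of the summed level, taken in CPM or without some of the members. No value past the threshold changed direction. Some values that did not pass changed sign in the fit of 13 libraries, such as Csf1r for genotype at passage 8 (-0.06, against 0.39) and Cd53 for passage in Atm-/- cells (0.56, against -0.02).

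The replicate numbers were not taken as pairs. Deviations of same-numbered libraries correlated by -0.20 to 0.00 between Atm+/+ passage 8 and passage 2 and by -0.05 to 0.19 in Atm-/- cells. Between irradiated and Atm+/+ passage 2 cells they correlated by -0.01 to 0.14. Not every library in these comparisons correlated best with its own number. Between irradiated and Atm+/+ passage 8 cells each irradiated library did, though with correlations of only 0.086, 0.058 and 0.038. With the number as a replicate block the counts were 1 and 8 for genotype at passage 2 and 8, 32 and 34 for passage in Atm-/- and Atm+/+ cells, 5 and 31 for irradiation and 3 for the difference. Over all genes DESeq2 called 918 against 176 by edgeR for genotype at passage 2, 3592 against 1693 at passage 8, and 3622 against 804 for the difference. On only the groups compared edgeR called 40, 18 and 120 genes there, and on 13 libraries 989, 4629 and 2556.

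At passage 8 most macrophage genes had fewer than 100 reads per library, so differences between genotypes there rest on small counts.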
